A study of Mus musculus with 7 samples.

Results

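The interleukin-1 and interleukin-18 axis was taken as 10 genes named by symbol, of the 31053 genes in each count table of this mouse bone marrow study. They are the ligands Il1b, Il1a and Il18, the receptor chains Il1rap and Il18rap, the decoy receptor Il1r2, the antagonists Il1rn and Il18bp, and the inflammasome genes Nlrp3 and Casp1. Interleukin-1 beta and interleukin-18 are made as inactive precursors that caspase-1 cuts once an inflammasome such as the one built on NLRP3 has formed. The cytokines then signal through receptor pairs that share the adaptor MyD88 and end on NF-kappaB. Il1rn encodes a receptor antagonist, Il1r2 a decoy that binds interleukin-1 without signalling, and Il18bp a secreted protein that holds interleukin-18 away from its receptor. In marrow, interleukin-1 is known as a signal that pushes stem and progenitor cells toward myeloid output.

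Whole marrow from spine, hips, femur and tibia was depleted of red cells, tagged with hashing antibodies, pooled and run as droplet single-cell RNA-seq in 7 libraries of 4 pools. The 5 groups of hashtag samples compared go by the prefix of the hashtag names. They were 2 samples that the series text calls TET2-mutated and chronic (HRO.5 and HRO.6), 6 further HRO samples, 4 WTO, 3 HRY and 3 WTY samples. For the other 4 groups, the sources used here state no genotype, treatment, age or meaning of the prefix. They also do not say that each hashtag is 1 animal, so p-values measure the spread among hashtagged samples alone, and that spread may be technical.

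After filtering, 43024 cells remained, 928 to 5530 per hashtag sample with 2679390 to 56015664 UMIs (unique molecular identifiers, counts of RNA molecules). Cells were clustered without the 10 genes, and clusters were named from marker lists, so each class below is a class of cells like its name. A cluster of 1484 cells could not be named and entered no class or test. It held 18.8% of the cells of HRO.7 and 13.1% of those of HRO.8, but 0.785% or less of any other sample. Its largest shares of the UMIs of a member in the 5 groups were 17.5% for Casp1, 11.9% for Il18bp and 8.97% for Nlrp3. The 9258 monocytes had all 10 monocyte markers over 2-fold above other cells, the 6330 mature neutrophils 9 of 9 markers of their own, and the 10584 immature neutrophils 9 of 9. The monocytes also had 8 of 10 macrophage markers at that level, and the 2983 progenitors 7 of 8 neutrophil and monocyte progenitor markers and 5 of 8 stem cell markers. Levels are CPM, the UMIs of a gene per 1000000 UMIs of that class in that hashtag sample, wherever the sample had 20 or more cells of the class. CPM is not scaled by gene length, so levels are compared across samples and classes but not between genes. In these sums, fewer cells with a transcript and less transcript per cell cannot be told apart.

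Some samples stood apart in ways that touch the results. The 5 samples of pool WBM_1 (both chronic samples, WTO.3, HRY.4 and WTY.3) had 250405 to 270589 CPM of S100a8 in mature neutrophils, against 49935 to 146986 CPM in the 13 samples of the other pools. Most monocytes of HRO.7 and HRO.8 lay in a cluster led by Cxcl9, Saa3 and C1q genes, in which 97.5% of cells came from pool WBM_2. Ddx3y, a Y-linked gene, was above 10 CPM in 1 of 6 HRO samples and 3 of 4 WTO samples. It was also above 10 CPM in HRY.4, HRY.5, HRY.6, WTY.4, WTY.5 and HRO.6. Both libraries of pool WBM_3 shared 2078 cell barcodes, of which 12 were single cells in both.

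The promoters of the 4 genes that passed the test between HRO and WTO samples in a myeloid class are shown here, from RefSeq on GRCm38.p6. Each runs 5′ to 3′ from 250 bases before to 50 bases after a RefSeq start site, with motif matches in capitals. Il1b is at chr2:129371090-129371389 on the minus strand, Il18rap at chr1:40515112-40515411 on the plus strand, Il1r2 at chr1:40085843-40086142 on the plus strand, and Il18bp at chr7:102018183-102018482 on the minus strand.
Il1b: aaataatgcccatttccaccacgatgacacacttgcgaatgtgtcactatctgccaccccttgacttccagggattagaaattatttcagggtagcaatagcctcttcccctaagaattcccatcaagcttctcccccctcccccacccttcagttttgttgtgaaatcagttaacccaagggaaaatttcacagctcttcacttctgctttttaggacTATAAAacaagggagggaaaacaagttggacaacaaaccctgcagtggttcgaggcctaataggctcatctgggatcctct
Il18rap: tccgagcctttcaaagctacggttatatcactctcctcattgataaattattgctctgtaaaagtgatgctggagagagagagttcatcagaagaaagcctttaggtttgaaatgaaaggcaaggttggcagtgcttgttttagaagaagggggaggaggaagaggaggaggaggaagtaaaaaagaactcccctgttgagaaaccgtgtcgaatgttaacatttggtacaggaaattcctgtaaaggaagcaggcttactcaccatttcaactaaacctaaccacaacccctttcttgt
Il1r2: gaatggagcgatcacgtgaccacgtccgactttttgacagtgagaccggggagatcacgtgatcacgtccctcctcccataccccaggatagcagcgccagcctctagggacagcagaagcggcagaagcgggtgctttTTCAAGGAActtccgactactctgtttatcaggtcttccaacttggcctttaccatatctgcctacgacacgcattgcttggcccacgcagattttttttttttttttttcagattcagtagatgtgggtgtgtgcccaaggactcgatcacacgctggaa
Il18bp: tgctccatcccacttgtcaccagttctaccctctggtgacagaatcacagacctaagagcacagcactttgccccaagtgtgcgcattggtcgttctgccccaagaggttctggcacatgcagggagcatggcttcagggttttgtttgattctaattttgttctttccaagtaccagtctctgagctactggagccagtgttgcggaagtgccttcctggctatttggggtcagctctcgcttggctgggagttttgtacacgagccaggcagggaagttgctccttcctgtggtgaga
The 4 motifs searched on both strands were an NF-kappaB motif (GGGANT, any 2 bases and CC), an interferon-response motif (GAAA, any 2 bases and GAAA), a STAT motif (TTCNNNGAA) and a TATA box (TATAAA). None of the promoters printed above held more than 1 match, so no matches overlap in them. The NF-kappaB motif was in 4.16% of the 32851 mouse promoters of that length, the interferon-response motif in 3.44%, the STAT motif in 8.3% and the TATA box in 13.6%. Il1b held a TATA box that began 31 bases before the start site, and Il1r2 held the STAT motif, beginning 111 bases before it. The windows of Il18rap and Il18bp held no match. All 10 genes had a promoter entry. Among the other 6, Il1rn and Il1rap held the NF-kappaB motif, Il1rap also the interferon-response motif, and Il1a, Il18 and 1 of 3 Il1rn starts the TATA letters.

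In the GENCODE release 21 annotation of the same mouse build, Il1b spans chr2:129364570-129371139 and its neighbour Il1a chr2:129299610-129309972, both on the minus strand. Il1rn lies on the same chromosome at chr2:24336853-24351494 on the plus strand. The receptor genes Il1r2 (chr1:40074079-40125231) and Il18rap (chr1:40515362-40551705) lie on the plus strand of chromosome 1, and the Il1r2 promoter shown above starts inside the annotated gene. Il18bp is at chr7:102014885-102018690 on the minus strand. Casp1 (chr9:5298517-5307265), Il18 (chr9:50554827-50581840), Nlrp3 (chr11:59541568-59566956) and Il1rap (chr16:26581704-26730117) lie on plus strands, and all 10 genes are protein coding.

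The genes differed in the class where they were highest, and 6 of the 10 had their highest mean in mature neutrophils. Il1b was a mature neutrophil transcript, at 774.9 ± 533.6 CPM there (SD, n = 18 hashtag samples), against 24.0 ± 33.7 CPM in intermediate neutrophils and 22.7 ± 18.9 CPM in monocytes. That gap was larger than the joint spread of the first and second classes, while intermediate neutrophils and monocytes did not differ beyond their spread. Intermediate neutrophils were a cluster that tied at 4 immature and 4 mature neutrophil markers. They had enough cells in 10 samples, none of pool WBM_1, and 47.3% of the cluster came from WTO.4. Mature neutrophils held 77.2% of the 12400 Il1b UMIs in the cells of the 5 groups and monocytes 15.0%. Immature neutrophils, the precursors of the mature cells, had 4.59 ± 3.03 CPM of Il1b.

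Il18 lay mainly in monocytes. Its level was highest in monocytes, at 18.2 ± 14.0 CPM (SD, n = 18), against 2.36 ± 2.16 CPM in mature and 0.302 ± 0.719 CPM in immature neutrophils. Monocytes held 74.5% of its 1547 UMIs in the 5 groups. Of their 1152 UMIs, 448 came from HRO.7 and 112 from HRO.8 in the Cxcl9 and Saa3 cluster, so these 2 samples weigh heavily in that share. The next class, B lineage cells, had 7.11 ± 7.96 CPM and did not differ from monocytes beyond the spread. Il1a, the second interleukin-1 ligand, was at the edge of detection. It had 19 UMIs in the cells of the 5 groups, 15 of them in monocytes of 2 samples (HRO.7 and HRO.8), and none in mature neutrophils, where 3 counts would have been 0.232 CPM.

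The genes that bind or block the cytokines were highest in the late neutrophil classes. Il1r2 averaged 226.4 ± 132.3 CPM in mature and 137.4 ± 54.0 CPM in intermediate neutrophils, against 41.6 ± 15.7 CPM in immature neutrophils, and the gap below the intermediate class exceeded the spread. Il1rn stood at 130.8 ± 56.4 CPM in mature and 107.0 ± 43.7 CPM in intermediate neutrophils, and at 18.2 ± 6.13 CPM in immature neutrophils, again a gap larger than the spread. Il18rap, which encodes the signalling chain of the interleukin-18 receptor, was shared more widely, with 304.8 ± 67.1 CPM in intermediate, 233.1 ± 92.6 CPM in mature and 125.4 ± 44.3 CPM in immature neutrophils. Basophil or mast cells, a class of 2 clusters that mixes both kinds, had 148.6 ± 44.6 CPM of Il18rap and T or NK cells 119.9 ± 80.8 CPM, and the first gap beyond the spread came below T or NK cells, ahead of progenitors at 30.9 ± 17.9 CPM.

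The remaining 4 genes were spread over several classes. Il1rap, the co-receptor chain of the interleukin-1 receptor, had its highest mean in mature neutrophils (40.5 ± 39.6 CPM) and Il18bp likewise (33.6 ± 40.1 CPM), with neighbours in the order inside the spread. Nlrp3, the inflammasome sensor, averaged 98.0 ± 70.4 CPM in mature neutrophils and 31.9 ± 7.95 CPM in monocytes, against 1.31 ± 1.43 CPM in immature neutrophils. Casp1, the protease that the inflammasome activates, averaged 47.5 ± 24.5 CPM in monocytes, 45.3 ± 32.4 CPM in T or NK cells and 4.65 ± 2.66 CPM in erythroid cells. Its neighbours in that order did not differ beyond their spread.

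**Figure D1:**
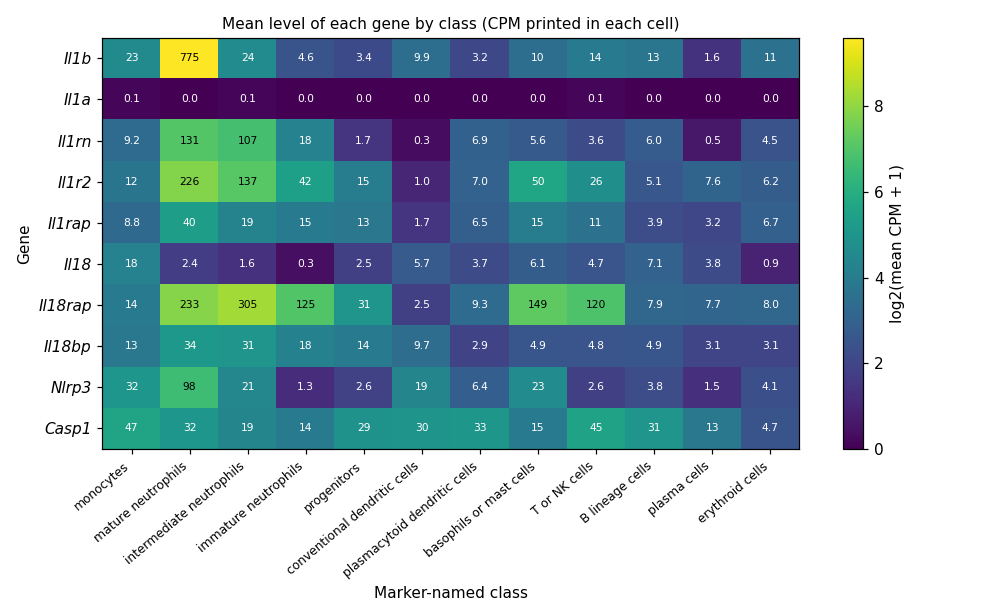
Mean level of the 10 genes in each marker-named class, coloured by log2(mean CPM + 1) with the mean CPM printed in each cell (means over hashtag samples holding 20 or more such cells, unassigned samples left out). Il1b stands out in mature neutrophils, Il1r2, Il1rn and Il18rap in mature and intermediate neutrophils, and Il18 in monocytes.

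The genes whose class means followed the same order were named by Pearson's r of log2(mean CPM + 1) over the 12 classes, among 8718 genes that reached 20 CPM in a class, as a description. Il1b was closest to Ifit3b (r = 0.921), Dusp1 (0.895) and Vnn3 (0.888), and Il18 to Dusp3 (0.931), Ctsc (0.906) and Rras (0.905). Il1r2 was closest to Osm (0.958), Il18rap (0.956) and Trem1 (0.955), and Il18rap to Elovl7 (0.973), Il1r2 (0.956) and Hcst (0.950). The classes share their libraries and depth.

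Droplet data also carry free RNA, which bears on Il1b outside neutrophils. A UMI of Il1b was seen in 38.8% of mature neutrophils (mean over samples, median 1683 UMIs per cell), in 6.88% of monocytes (5662 UMIs) and in 6.73% of erythroid cells (9793 UMIs), a class that should lack it. Thinned to 1000 UMIs per cell, with shallower cells left out, the shares were 31.9%, 2.26% and 1.36%, so the share over all monocytes lay near that of erythroid cells. In the monocytes of each group, the share was 13.9 ± 3.21% in HRO samples (n = 6, median 7913 UMIs) and 3.60 ± 0.895% in WTO samples (n = 4, median 5825.5 UMIs). Thinned, it was 4.38 ± 2.27% in HRO samples with 56 shallow cells left out, and 0.906 ± 0.832% in WTO samples with 8 left out. The thinned share in erythroid cells was 0% in the 2 HRO and 0% in the 3 WTO samples with enough cells, and the unthinned shares there were 6.01% in HRO and 3.57% in WTO samples.

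The first comparison was HRO against WTO, the groups with the most samples. In monocytes, Il1b and Il18rap were higher in HRO samples, in mature neutrophils Il18bp was, and in immature neutrophils Il1r2 was. No member was lower in these 3 classes, and none passed in progenitors. Tests were edgeR's quasi-likelihood test on summed counts with pool as a term and Benjamini-Hochberg adjustment over all genes of the class, and a gene was called at an adjusted p under 0.05. Fold changes from this fit allow for the pool and so can differ from the ratio of the group means.

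Of the 9 members tested in monocytes, 2 were called, against 5.05% of all 10414 genes tested there. The 9 log2 fold changes had a median of 1.32, and 8 were positive, while all genes had a median of 0.02. In mature neutrophils 1 of 8 tested members was called, against 1.29% of 5821 genes, with a median of 0.26 for the members and 0.01 for all genes. In immature neutrophils 1 of 7 was called, against 2.08% of 9312 genes, with medians of 0.38 and 0.01. In progenitors 0 of 7 were called by edgeR, and 0 by DESeq2, against 0.412% of 9954 genes, with medians of 0.79 and 0.00, and 1029 genes had an unadjusted p under 0.05. The members that passed the low-count filter are not all 10, since Il1a was too low in every class and Il18 was tested only in monocytes of these 4. The members were chosen with earlier results of these data known, so their contrasts with all genes, here and below, are descriptions.

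Il1b in monocytes was the ligand that passed. Its level ran from 13.9 CPM through a median of 45.9 to 61.9 CPM in the 6 HRO samples, against 22.3, 5.02, 2.11 and 6.17 CPM in WTO.3, WTO.4, WTO.5 and WTO.6. The lowest HRO sample, HRO.11, lay below WTO.3, and the other 5 HRO samples lay above all WTO samples. The log2 fold change was 3.09 ± 0.44 (SE), with an edgeR adjusted p of 0.00186.

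The direction held inside both pools that contain both groups. In pool WBM_2 monocytes had 43.3 CPM of Il1b as the mean of 3 HRO samples and 5.02 CPM in WTO.4, and in pool WBM_4 29.8 CPM as the mean of 2 HRO samples and 4.14 CPM as the mean of 2 WTO samples. The summed level of 7 neutrophil genes that mark free RNA (S100a8, S100a9, Lcn2, Ngp, Camp, Ltf and Retnlg) was 5262 to 13763 CPM in HRO monocytes and 6850 to 35600 CPM in WTO monocytes, and none of the 7 was called. The WTO sample with the most Il1b, WTO.3, was also the one with the most of that RNA; its part in the WTO.3 value was not tested. Without WTO.4, the only WTO sample of pool WBM_2, the Il1b fold change was 2.92 with an adjusted p of 0.062, in a fit that called 0.251% of all genes in monocytes, so the call depends on that sample. The Il1b call was also lost with no pool term and with only the compared groups fitted.

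The composition of the monocytes differed between the groups when cells were pooled over samples, and also between samples of the same group. In pooled HRO cells 35.5% of monocytes lay in the Cxcl9 and Saa3 cluster, 34.9% in cluster 10 and 16.4% in cluster 4. A further 10.8% lay in a cluster led by Ace, Fabp4 and Adgre4, genes of patrolling monocytes. The Cxcl9 cluster held 97.2% of the monocytes of HRO.7 and 95.7% of those of HRO.8, but 3.30% or less in HRO.9 to HRO.12. Cluster 10 held 40 to 61.0% in HRO.9 to HRO.12 and 0.162% in HRO.7. In pooled WTO cells 37.6% lay in cluster 4, 30.7% in cluster 14 and 17.4% in cluster 7. The Ace and Adgre4 cluster held 6.92% and cluster 10 held 6.80%. Cluster 7 held 87.3% of the monocytes of WTO.3 and 1.59% or less in WTO.4 to WTO.6. Cluster 10 held 31.7% and 26.8% in WTO.5 and WTO.6, against 40% and 46.8% in HRO.11 and HRO.12 of the same pool. Both the Cxcl9 and the Ace clusters held macrophage markers as well, so the fit was repeated with only the clusters in which monocyte markers alone led. There 3 members were called, against 6.11% of 9759 genes: Il1r2 at 3.68 ± 0.46 (adjusted p = 9.04e-05), Il18rap at 1.47 ± 0.28 (0.00326) and Il1b at 1.75 ± 0.42 (0.0178), all higher in HRO samples (4 samples with enough cells) than in WTO samples. Lcn2, listed above among the free neutrophil RNAs, was also called higher in HRO samples in this fit (1.83 ± 0.34, edgeR adjusted p = 0.00318). The part of free RNA in the 3 calls was not tested.

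**Figure D2:**
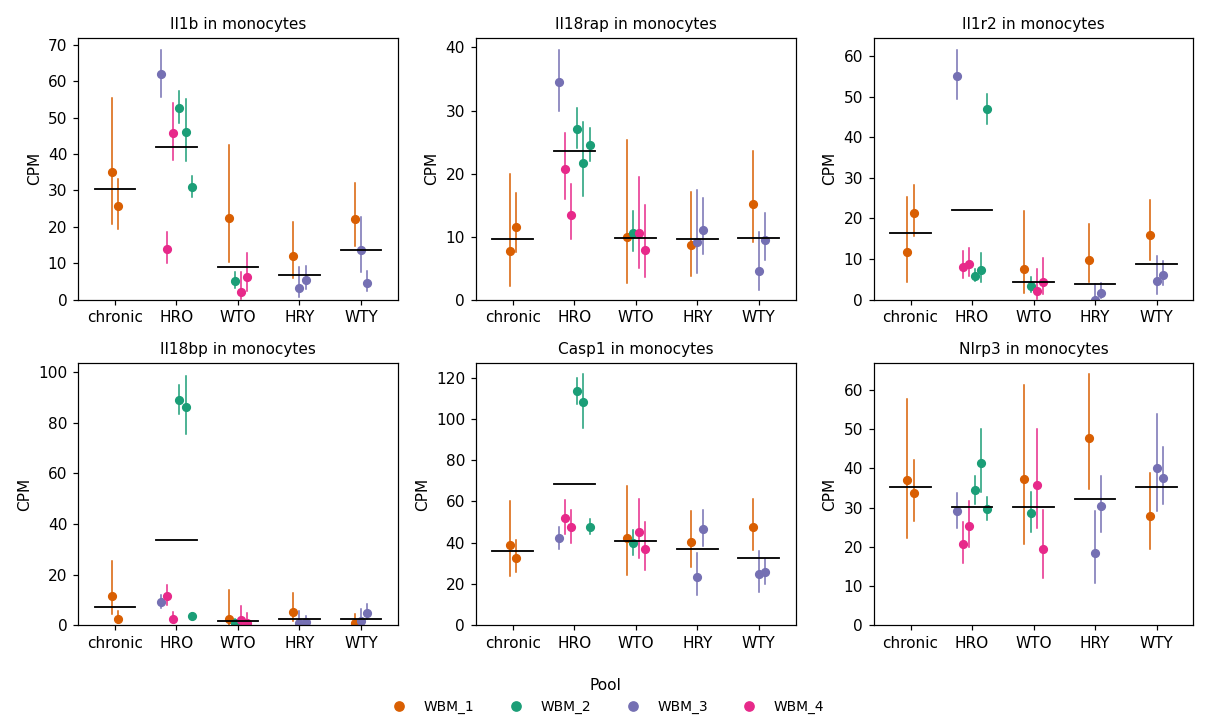
Level in monocytes of 6 genes in each hashtag sample (points, CPM, coloured by pool) with exact Poisson intervals at 95% that cover counting error only and the group mean (line). Il18rap is higher in every HRO sample than in every WTO sample, Il18bp and Casp1 stand out in HRO.7 and HRO.8, and Nlrp3 overlaps across all groups.

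The Ace and Adgre4 cluster carried much of the monocyte Il1b. Its level there was 497, 326, 543 and 349 CPM in HRO.7, HRO.9, HRO.10 and HRO.12, against 82.9 and 44.6 CPM in WTO.3 and WTO.4, the samples with at least 20 such cells. These values came from 23, 263, 119 and 32 cells in the HRO samples and from only 20 and 34 cells in the WTO samples. All 4 HRO values lay above both WTO values, and no test was run on so few samples. This cluster held 11 to 87.5% of the monocyte Il1b UMIs of the 6 HRO samples, the least in HRO.7 and the most in HRO.10. It made up 1.87 to 18.7% of monocytes in HRO samples and 2.06 to 12.7% in WTO samples. A UMI of Il1b was seen in 51.3 ± 16.7% of its cells in the 3 HRO samples with enough cells over 1000 UMIs, against 23.5% in the 1 such WTO sample. Thinned to 1000 UMIs, the shares were 31.4 ± 8.44% in those HRO samples and 5.88% in that WTO sample.

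**Figure D3:**
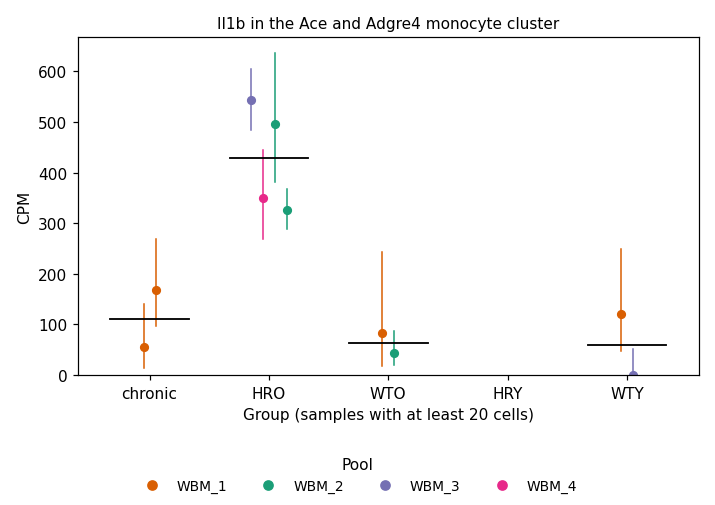
Level of Il1b (CPM) in the monocyte cluster led by Ace and Adgre4, per hashtag sample with at least 20 cells, coloured by pool, with exact Poisson intervals at 95% for counting error and the group mean (line). The 4 HRO samples sit between 326 and 543 CPM, above the chronic samples and both WTO samples; no HRY sample had enough cells.

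In mature neutrophils, where most Il1b lay, the gene did not pass. Its level ran from 458 CPM through a median of 860 to 1284 CPM in HRO samples, against 55.0, 1273, 536 and 483 CPM in WTO.3, WTO.4, WTO.5 and WTO.6. The groups overlapped, and the log2 fold change was 0.24 ± 0.19 (edgeR adjusted p = 0.656). The 5 samples of pool WBM_1 had 55.0 to 173.5 CPM, and the 13 samples of the other pools 458 to 1655 CPM. The log2 fold change was 0.38 ± 0.37 in immature neutrophils (edgeR adjusted p = 0.73) and 1.34 ± 0.71 in progenitors (0.554).

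Il18, the second ligand, did not pass in monocytes, the class where it was measured best. It ran from 3.87 CPM through a median of 18.9 to 45.7 CPM in HRO samples, against 42.2, 11.2, 14.8 and 8.81 CPM in WTO.3, WTO.4, WTO.5 and WTO.6. The ranges overlapped, and the log2 fold change was 1.03 ± 0.62 (edgeR adjusted p = 0.349).

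Il18rap, the interleukin-18 receptor chain, was higher in monocytes of every HRO sample. It ran from 13.5 CPM through a median of 23.1 to 34.6 CPM in HRO samples, against 9.92, 10.5, 10.5 and 7.93 CPM in WTO.3, WTO.4, WTO.5 and WTO.6. The groups did not overlap, and the log2 fold change was 1.32 ± 0.28 (SE; edgeR adjusted p = 0.0162). Within pool WBM_2 the HRO mean was 24.4 CPM and WTO.4 had 10.5 CPM, and within pool WBM_4 the means were 17.0 CPM in HRO and 9.24 CPM in WTO samples. The call was lost in 4 of 31 other settings. They were without WTO.4 (1.26, adjusted p = 0.202), without pool WBM_1 (1.15, adjusted p = 0.0522), with no pool term and with only the compared groups fitted.

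In neutrophils Il18rap was more abundant and did not pass. Mature neutrophils had 208 to 325 CPM in HRO samples and 75.0 to 275 CPM in WTO samples, with a log2 fold change of 0.28 ± 0.12 (edgeR adjusted p = 0.293). Pool WBM_1 stood apart again, with 75.0 to 149.9 CPM over its 5 samples against 179.9 to 373.7 CPM in the others. In T or NK cells, where the receptor is known to drive interferon gamma, Il18rap ran from 39.6 to 121.9 CPM in HRO samples, against 40.5, 138.9, 261.0 and 163.5 CPM in WTO.3 to WTO.6. The log2 fold change there was -1.09 ± 0.34 and did not pass (adjusted p = 0.293), in a class where 0% of 4223 genes were called and 2 members were tested.

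Il1r2, the decoy receptor, was higher in immature neutrophils of HRO samples. It ran from 42.7 CPM through a median of 53.1 to 82.9 CPM in HRO samples, against 27.6, 28.8, 36.8 and 37.6 CPM in WTO.3, WTO.4, WTO.5 and WTO.6. Every HRO sample lay above every WTO sample, and the log2 fold change was 0.78 ± 0.19 (SE; edgeR adjusted p = 0.0413). Within pool WBM_2 the HRO mean was 54.4 CPM and WTO.4 had 28.8 CPM, and within pool WBM_4 the means were 50.8 CPM in HRO and 37.2 CPM in WTO samples. The adjusted p lies close to the threshold, and the call was lost in 14 of 30 other settings.

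In monocytes Il1r2 did not pass with all clusters and did with fewer. HRO.9 and HRO.10 had 46.8 and 55.1 CPM, and HRO.7, HRO.8, HRO.11 and HRO.12 had 5.91, 7.36, 8.06 and 8.74 CPM, against 7.44, 3.42, 2.11 and 4.40 CPM in WTO.3, WTO.4, WTO.5 and WTO.6. HRO.9 and HRO.10 stood far above the rest, and the log2 fold change was 2.73 ± 0.77 (edgeR adjusted p = 0.056). It was called without HRO.7 and HRO.8, whose monocytes were mostly in the Cxcl9 cluster (3.48, adjusted p = 7.4e-05), and with Ddx3y status as a term (3.05, adjusted p = 0.0237). Progenitors gave 1.40 ± 0.41 (0.166) and mature neutrophils 0.60 ± 0.27 (0.309), neither called.

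Il18bp, the soluble inhibitor of interleukin-18, was higher in mature neutrophils of HRO samples. It ran from 25.3 CPM through a median of 48.3 to 143 CPM in HRO samples, against 5.0, 12.4, 15.6 and 12.1 CPM in WTO.3, WTO.4, WTO.5 and WTO.6. The groups did not overlap, and the log2 fold change was 2.24 ± 0.50 (SE; edgeR adjusted p = 0.04). Within pool WBM_2 the HRO mean was 100.8 CPM and WTO.4 had 12.4 CPM, and within pool WBM_4 the means were 40.1 CPM in HRO and 13.8 CPM in WTO samples. HRO.7 and HRO.8 were the highest HRO samples, at 143 and 134 CPM; without both, the fold change was 1.52 and was still called (adjusted p = 0.00584). The call was lost in 19 of 30 other settings, among them the fit with Ddx3y status (1.77, adjusted p = 0.128).

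The same pair of samples led Il18bp in the other classes. In monocytes HRO.7 and HRO.8 had 89.1 and 86.4 CPM, with 2.69 to 11.6 CPM in HRO.9 to HRO.12, against 0.881 to 2.48 CPM in the 4 WTO samples. All HRO samples lay above all WTO samples, yet the log2 fold change of 4.95 ± 1.49 did not pass (edgeR adjusted p = 0.0706). Immature neutrophils had 71.2 and 72.1 CPM in HRO.7 and HRO.8, and progenitors 84.4 and 78.1 CPM. Neither class passed, with log2 fold changes of 1.58 ± 0.62 (adjusted p = 0.227) and 2.36 ± 0.74 (0.203). In all 4 classes HRO.7 and HRO.8 had the highest Il18bp of the 6 HRO samples.

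Il1rn, the receptor antagonist, passed in none of the 3 classes in which it was tested. In monocytes it ran from 2.90 CPM through a median of 10.8 to 23.0 CPM in HRO samples, against 14.9, 4.79, 3.16 and 2.64 CPM in WTO.3, WTO.4, WTO.5 and WTO.6, and the log2 fold change was 1.65 ± 0.65 (edgeR adjusted p = 0.148). In immature neutrophils HRO samples had 11.1 to 22.5 CPM and WTO samples 17.0 to 30.3 CPM, with a log2 fold change of -0.53 ± 0.18 (adjusted p = 0.163). The groups overlapped in both classes. Il1rap had log2 fold changes between -0.22 and 0.06 in the 4 classes, with adjusted p of 0.644 or more.

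Neither inflammasome gene was called. Nlrp3 in monocytes ran from 20.6 CPM through a median of 29.4 to 41.4 CPM in HRO samples, against 37.2, 28.5, 35.9 and 19.4 CPM in WTO.3, WTO.4, WTO.5 and WTO.6. The groups overlapped, and its log2 fold change was 0.10 ± 0.25 (edgeR adjusted p = 0.894). Casp1 in monocytes was at 113 and 108 CPM in HRO.7 and HRO.8 and between 42.2 and 51.9 CPM in HRO.9 to HRO.12, against 37.0 to 45.3 CPM in WTO samples. The fold change was 0.77 ± 0.31 (adjusted p = 0.159). In immature neutrophils Casp1 ran from 13.9 to 39.2 CPM in HRO samples and from 5.26 to 13.8 CPM in WTO samples, without overlap, and did not pass (0.90 ± 0.32, adjusted p = 0.19). As for Il18bp, HRO.7 and HRO.8 were the highest HRO samples in all 4 classes.

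**Figure D4:**
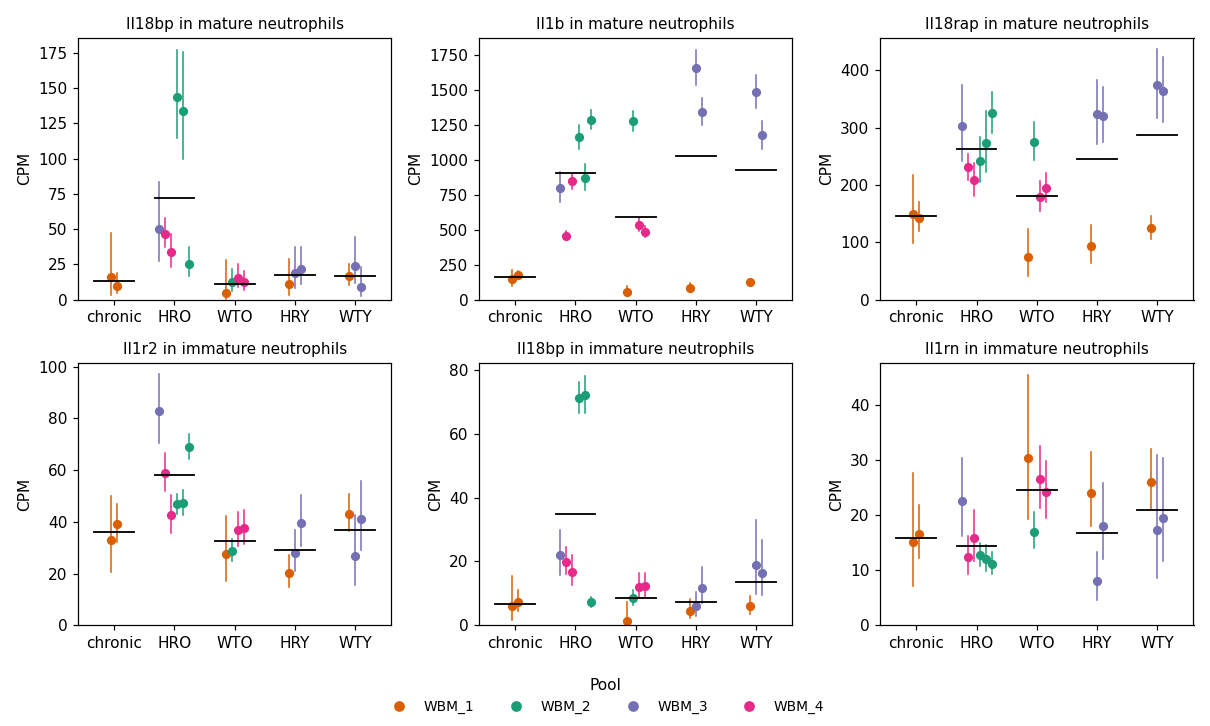
Level of Il18bp, Il1b and Il18rap in mature neutrophils and of Il1r2, Il18bp and Il1rn in immature neutrophils, per hashtag sample (points, CPM, coloured by pool), with exact Poisson intervals at 95% for counting error and the group mean (line). Il18bp in mature and Il1r2 in immature neutrophils do not overlap between HRO and WTO, and pool WBM_1 is low for Il1b and Il18rap in every group it holds.

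**Figure D5:**
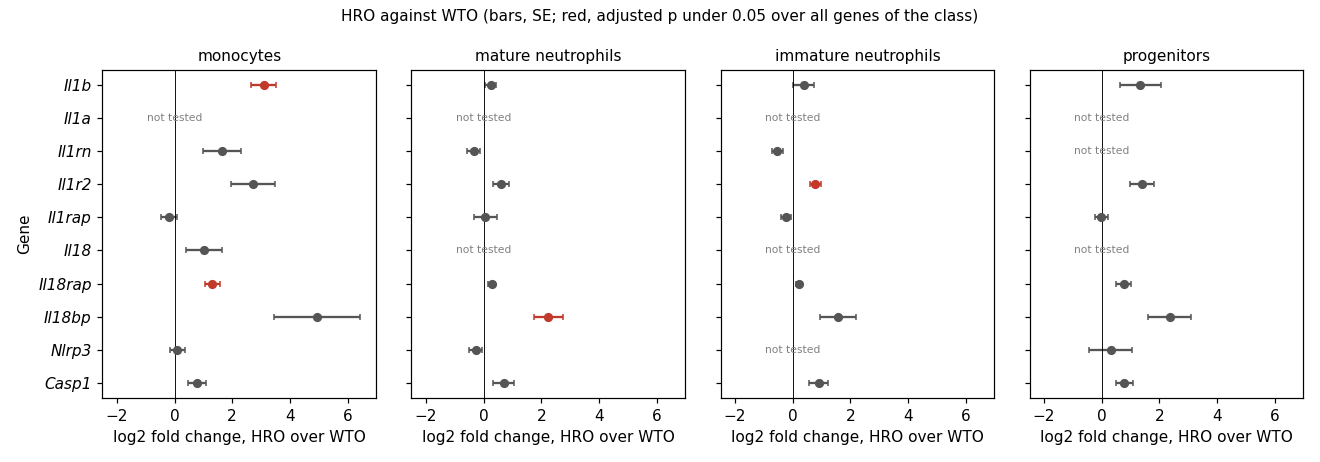
Log2 fold change of each gene, HRO over WTO, in the 4 myeloid classes with its SE, from edgeR's quasi-likelihood fit with pool as a term; red marks an adjusted p under 0.05 over all genes of the class, and genes under the low-count filter are marked as not tested. The called values are Il1b (3.09) and Il18rap (1.32) in monocytes, Il18bp (2.24) in mature neutrophils and Il1r2 (0.78) in immature neutrophils.

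Outside the myeloid classes, Il1b was lower in B lineage cells of HRO samples, 1 of 2 members tested, in a class where 12.3% of 7908 genes were called. It was 2.99, 0, 0 and 1.48 CPM in HRO.7, HRO.8, HRO.9 and HRO.11, against 7.21, 11.7, 27.9 and 31.8 CPM in WTO.3, WTO.4, WTO.5 and WTO.6. The counts were small, 0 to 15 UMIs in HRO and 3 to 20 UMIs in WTO samples, and the log2 fold change was -2.78 ± 0.82 (edgeR adjusted p = 0.0401). The summed level of the 7 free neutrophil RNAs in the same cells was 1299 to 4109 CPM in HRO samples and 7198 to 35036 CPM in WTO samples. Of these 7 genes 4 were called lower in HRO samples, and all 7 had negative log2 fold changes, with a median of -2.38. B lineage cells should lack Il1b, and the part of that RNA in the difference was not tested. The class joined 3 clusters that differ in make-up. In the cluster led by Ccl22, Shisa8 and Ly6k, all cells came from pool WBM_2 and 78.7% from HRO.7. Its median was 11298 UMIs per cell, against 1031 and 1012 in the other B lineage clusters. The part of this cluster in the Il1b difference was not tested either.

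The second comparison set HRO against HRY samples. In monocytes Il1b, Il18rap and Il1r2 were higher in HRO samples, 3 of 9 tested members, against 1.81% of all genes. The log2 fold changes were 3.88 ± 0.55 for Il1b (edgeR adjusted p = 0.00233), 1.80 ± 0.36 for Il18rap (0.0199) and 4.47 ± 0.97 for Il1r2 (0.0289). The HRY monocytes had 11.9, 3.06 and 5.32 CPM of Il1b in HRY.4, HRY.5 and HRY.6, below the 13.9 CPM of the lowest HRO sample. Il18rap was 8.68, 9.19 and 11.1 CPM and Il1r2 9.76, 0 and 1.64 CPM in the same samples, so Il18rap did not overlap with HRO samples and Il1r2 did. Among all members tested in monocytes the median log2 fold change was 1.80, against -0.02 for all genes.

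These calls rest on few samples, since pool WBM_3 is the only pool with both groups and HRO.10 its only HRO sample. Without HRO.10 none of the 3 genes was called, and the log2 fold changes were 3.85 for Il1b, 0.75 for Il18rap and 2.18 for Il1r2. Il18rap and Il1r2 were also not called without any 1 of HRY.4, HRY.5 and HRY.6, and Il1r2 without WTY.3, while Il1b was. Ddx3y was above 10 CPM in HRY.4, HRY.5 and HRY.6, but of the HRO samples in HRO.9 alone. With Ddx3y status as a term Il18rap was not called, while Il1b and Il1r2 were. The summed free neutrophil RNA in monocytes was 13763 CPM in HRO.10, against 1422 and 4699.8 CPM in HRY.5 and HRY.6 of the same pool. Of its 7 genes 6 had positive fold changes for HRO against HRY, with a median of 1.33, and 0 were called by edgeR; the part of that RNA in the 3 calls was not tested. With the strict monocyte clusters Il1b was not called (0.80, adjusted p = 0.525), while Il18rap (1.90, 0.00181) and Il1r2 (4.79, 1.99e-05) were. No member passed in mature neutrophils, immature neutrophils or progenitors, where 0.842%, 0.15% and 0.141% of genes were called, and Il1r2 in immature neutrophils came closest (1.31 ± 0.30, adjusted p = 0.0943).

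The comparisons of HRY with WTY and of WTO with WTY gave no called member. HRY against WTY had 0 called among the members tested in the 4 classes, where 0%, 0.0172%, 0% and 0% of genes were called in monocytes, mature neutrophils, immature neutrophils and progenitors, and the lowest adjusted p was 0.573. Il1b in monocytes was 11.9, 3.06 and 5.32 CPM in HRY.4 to HRY.6, against 22.3, 13.7 and 4.57 CPM in WTY.3 to WTY.5 (-0.81 ± 0.57, edgeR adjusted p = 1). WTO against WTY likewise had 0 called members and 0% of genes called in each of the 4 classes, and the lowest adjusted p was 0.809. DESeq2 called no member in either comparison. At an unadjusted p under 0.05 in edgeR there were 499 genes in monocytes for HRY against WTY and 381 for WTO against WTY.

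The difference between the HRO-WTO and the HRY-WTY difference was tested in the same fit. In monocytes Il1b was called (3.90 ± 0.71, edgeR adjusted p = 0.0174), 1 of 9 tested members, against 0.605% of genes. The HRY, WTO and WTY samples overlapped one another at 2.11 to 22.3 CPM, and of the HRO samples HRO.11 alone lay in that range. Il1r2 (4.10 ± 1.27, adjusted p = 0.186) and Il18rap (1.26 ± 0.45, 0.276) did not pass. The other classes had no called member, against 0%, 0.0966% and 0.0402% of genes in mature neutrophils, immature neutrophils and progenitors. With the strict monocyte clusters the Il1b value was 2.28 with an adjusted p of 0.115.

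The TET2-mutated chronic samples were compared with HRO and with WTO samples. Il1b in monocytes was 35.0 and 25.7 CPM in the chronic samples HRO.5 and HRO.6, against 13.9 to 61.9 CPM in the 6 HRO and 2.11 to 22.3 CPM in the 4 WTO samples. In mature neutrophils it was 144.6 and 173.5 CPM in the chronic samples, against 458 to 1284 CPM in HRO and 55.0 to 1273 CPM in WTO samples. WTO.3, HRY.4 and WTY.3, the other samples of pool WBM_1, had 55.0, 84.3 and 128.7 CPM there, so both chronic samples were the highest of their own pool and lower than all 13 samples of the other pools.

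No member was called for chronic against HRO in the 4 classes, where 0%, 0%, 0.0107% and 0% of genes were called in monocytes, mature neutrophils, immature neutrophils and progenitors. In monocytes all 9 log2 fold changes were negative with a median of -1.83, among them Il1b at -2.62 ± 0.69 (edgeR adjusted p = 0.25) and Il1r2 at -2.77 ± 1.16 (0.474), while all genes had a median of -0.00. Il18rap in monocytes was 7.78 and 11.5 CPM in the chronic samples, below the 13.5 to 34.6 CPM of the HRO samples, and its fold change was -1.83 ± 0.51 (adjusted p = 0.284). With the strict clusters Il1r2 was called, at -3.39 ± 0.69 (adjusted p = 0.0294), 1 of 9 tested members, against 0.584% of genes. Chronic against WTO had 0 called members and 0% of genes called in each class, with a lowest adjusted p of 0.868. DESeq2 called no member in either comparison. At an unadjusted p under 0.05 in edgeR there were 995 genes in monocytes for chronic against HRO and 379 for chronic against WTO.

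All chronic samples came from pool WBM_1 and no HRO sample did, so these 2 comparisons reach the pool term only through WTO.3, HRY.4 and WTY.3. Cluster 7 held 89.8% of the chronic monocytes, and 90.6% of its cells were from that pool, and the free neutrophil RNA summed to 36838 and 41608 CPM in their monocytes. Its part in the monocyte values was not tested.

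The wider pathway was read from a list of 31 further genes of the receptors, adaptors and inflammasome. That list was also chosen with earlier results of these data known, so its contrasts with all genes are descriptions. In monocytes 2 of 27 tested were called for HRO against WTO, beside 5.05% of all genes, and both were higher. Myd88, the adaptor of both receptor families, averaged 98.6 ± 22.7 CPM in HRO and 47.2 ± 9.84 CPM in WTO samples (log2 fold change 1.08 ± 0.17, edgeR adjusted p = 0.00312). Pycard, the adaptor that joins NLRP3 to caspase-1, averaged 588 ± 110.01 CPM in HRO and 439 ± 59.4 CPM in WTO samples (0.65 ± 0.13, adjusted p = 0.0126).

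In mature neutrophils 3 of 21 were called, beside 1.29% of all genes, and all were higher: Tnfaip3 (1.57 ± 0.35, adjusted p = 0.0387) and Nfkbia (1.09 ± 0.26, 0.0482), which restrain NF-kappaB, and Pycard (0.99 ± 0.23, 0.0462). In immature neutrophils 2 of 27 were called, beside 2.08% of all genes, Nfkbia (0.55 ± 0.10, adjusted p = 0.00923) and Casp4 (0.95 ± 0.22, 0.0258), the sensor caspase of the noncanonical inflammasome. Casp4 was also the 1 of 28 called in progenitors, beside 0.412% of all genes, at 37.6 ± 12.9 CPM in HRO and 15.1 ± 3.66 CPM in WTO samples (0.98 ± 0.21, adjusted p = 0.0481). None of the list was lower in any of these 4 classes, but with the strict monocyte clusters Irak2, a kinase of the pathway, was (-0.66 ± 0.19, adjusted p = 0.0492), and 4 were higher. The median log2 fold change of the list was -0.01 in monocytes, 0.20 in mature neutrophils, 0.02 in immature neutrophils and 0.10 in progenitors, against 0.02, 0.01, 0.01 and 0.00 for all genes. Il1r1, the signalling receptor of interleukin-1, was measured mainly in progenitors, at 3.41 to 11.6 CPM in HRO and 0 to 2.50 CPM in WTO samples, and did not pass (2.37 ± 0.66, adjusted p = 0.135).

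A list of 12 genes known to answer to these cytokines was read the same way, with the same limit on how it was chosen. In monocytes 3 of 8 tested were called, beside 5.05% of all genes, and were higher in HRO samples. Saa3, an acute-phase gene, ran from 229 to 4036 CPM in HRO and from 0 to 10.04 CPM in WTO samples (8.84 ± 0.91, adjusted p = 0.0002), and it is one of the genes that led the Cxcl9 cluster. Cxcl2, a neutrophil chemokine (2.75 ± 0.68, adjusted p = 0.0365), and Nfkbiz, a nuclear NF-kappaB cofactor (1.11 ± 0.30, 0.0476), were the others. Cxcl2 and Nfkbiz were also the 2 called of 7 in mature neutrophils, beside 1.29% of all genes, and the 2 called of 6 in immature neutrophils, beside 2.08%. In progenitors 0 of 6 were called, beside 0.412% of all genes. Cxcl2 is also on the list of markers that named mature neutrophils. The median log2 fold change of the list was 1.32 in monocytes, 0.91 in mature neutrophils, 1.30 in immature neutrophils and 1.44 in progenitors, against 0.02, 0.01, 0.01 and 0.00 for all genes.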

How the data were processed

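Whole mouse marrow was measured as droplet single-cell RNA-seq with hashtags. The deposited matrices hold UMI counts made by the authors with Cell Ranger 3.0.0 for pool WBM_1 and 3.1.0 for the other libraries, per the file headers; the submitters' processing notes also name bcl2fastq, Seurat and mm10. The members and gene lists were chosen with earlier results of these data known.

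Hashtag counts were assigned with HTODemux in Seurat 5.3.0 (quantile 0.99), which left 57944 single-tag cells of 78720 barcodes. Cells with under 300 genes (4538) or over 10% mitochondrial counts (10363) were then removed. Doublets carrying 2 hashtags were removed by that step, and no further caller was run. Cells were log-normalised and clustered in scanpy 1.11.5 (2000 variable genes without the members and pathway genes, 30 components, 20 neighbours, Leiden resolution 1). A cluster was named where 3 or more markers of a list were in at least 10% of its cells and 2-fold above other cells; this rule was set after the data were seen, and names may differ from the authors'. Counts were then added up for each class in each hashtag sample.

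Sums were tested with edgeR 4.0.16 in R 4.3.3 (quasi-likelihood test, TMM, filterByExpr, group and pool terms over all 5 groups, Benjamini-Hochberg over all genes of a class, threshold 0.05). All adjusted p-values are from it unless DESeq2 1.42.0 is named. Standard errors were taken from the fold change and its F value. The fit was also run on simulated counts with known changes. These held no pool effect, so that run could not test how the fit handles the pools. Samples HR.7 and HR.AE, which the labels put in no group, entered no comparison. All 10 members were reported wherever measured; of the pathway list, those past the threshold were named. Intervals cover counting error only. Library totals ran from 25343305 to 95553827 UMIs, and small sums are the least precise.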

Additional observations from a re-analysis of the deposited data

Results flagged for a closer look

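Of 61 groups of 4 or more samples examined for a sample far from the rest, 3 held one, and chance flags about 1 in 20. Il1rap in mature neutrophils was 57.7 CPM in WTO.4, against 5.0 to 12.6 CPM in the other 3 WTO samples. Il1rap in immature neutrophils was 23.0 CPM in HRO.10, with the other 5 HRO samples between 6.92 and 11.97 CPM. Casp1 in immature neutrophils was 5.26 CPM in WTO.3, which belongs to pool WBM_1, against 12.4 to 13.8 CPM in the other 3 WTO samples.

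The Il1b difference between HRO and WTO monocytes was larger than that between HRY and WTY monocytes by 3.90 ± 0.71 on the log2 scale (edgeR adjusted p = 0.0174). The direction held in all 31 other settings, but the call was lost in 9. Among those 9 were no pool term, the strict monocyte clusters, pool WBM_1 left out and Ddx3y status as a term.

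The hashtag sample HR.7 entered no comparison, since the labels put it in no group. It had 1818 CPM of Il1b in mature neutrophils, against 55.0 to 1483 CPM in the WTO and WTY samples, and 53.5 CPM in monocytes, against 2.11 to 22.3 CPM in those samples. The monocyte value lay inside the 13.9 to 61.9 CPM of the HRO samples, and the highest mature neutrophil value in the 5 groups was 1655 CPM, in HRY.5.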

How the results depend on the processing

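Members called for HRO against WTO were counted again under each setting, with the percent of all genes called under it in parentheses. In monocytes (2 called, 5.05%) there were 4 with DESeq2 (7.59%), 7 with no filter on low counts (7.94%), 1 without pool WBM_1 (1.72%), and 0 with no pool term (0.432%) or with only the compared groups fitted (0.173%). Leaving out 1 sample at a time gave 0 (without WTO.4, 0.251%) to 6 (without HRO.9, 14.8%). In mature neutrophils (1 called, 1.29%) there were 2 with no filter (2.34%), at Leiden resolution 2 (1.66%) or without HRO.7 and HRO.8 (1.19%), and 0 with no pool term (0%), only the compared groups (0.0733%), without pool WBM_1 (0.423%) or with Ddx3y status (1.24%); leaving out 1 sample gave 0 to 1. In immature neutrophils (1 called, 2.08%) there were 4 with no filter (3.34%) and 0 with no pool term (0.0215%), only the compared groups (0.45%), the top 5% of cells by UMIs left out (2.02%) or without pool WBM_1 (1.33%); leaving out 1 sample gave 0 to 3. In progenitors (0 called, 0.412%) there were 4 with no filter (2.0%), and leaving out 1 sample gave 0 to 3.

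For the other comparisons, calls were counted over pairs of member and class in the 4 myeloid classes, with the percent of all such pairs of gene and class in parentheses. HRO against HRY (3 called, 0.749%) gave 8 with no filter (2.11%), 6 at resolution 2 (2.13%), and 0 with no pool term (0.53%) or only the compared groups (0.136%); leaving out 1 sample gave 0 to 5. HRY against WTY (0 called) gave 1 with no filter (0.323%) and 1 with only the compared groups (0.188%). WTO against WTY (0 called) gave 1 with no filter (0.253%) and 1 at resolution 2 (0.0393%). Chronic against HRO (0 called) gave 6 with no filter (0.812%), 6 with only the compared groups (9.99%), and 1 each with no pool term (1.31%), the strict monocyte clusters (0.166%), or without HRO.7 and HRO.8 (0.148%). Chronic against WTO (0 called) gave 2 with no filter (0.146%). The difference of differences (1 called, 0.214%) gave 2 with DESeq2 (0.71%), 8 with no filter (1.81%), 3 without HRO.7 and HRO.8 (0.739%), and 0 with no pool term (0%), without pool WBM_1 (0.0504%) or with Ddx3y status (0.2%); leaving out 1 sample gave 0 to 3. The cause of these shifts was not tested.

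Among single called genes, 194 alternatives kept direction and call, 80 kept the direction only, and none turned it round. Il1b in monocytes for HRO against WTO ranged from 1.75 to 3.29 on the log2 scale. Strict clusters, left-out pools or samples and Ddx3y status were chosen after seeing the data, as was the block for chronic against WTO.

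Sample numbers were not taken to pair the samples. Deviations of HRY.5 and WTY.5, which share a pool, correlated at 0.56 to 0.71 over the myeloid classes. Those of HRY.4 and WTY.4, in different pools, correlated at -0.74 to -0.53. Over all HRY and WTY pairs, of any number, the values were 0.41 to 0.84 within a pool and -0.80 to -0.53 across pools. The pools thus separate them. With the replicate block, 0 members were called for HRY against WTY and 0 for WTO against WTY. For chronic against WTO the replicate block gave 11 pairs of member and class, beside 23.3% of all pairs of gene and class, in a fit with no pool term in which pool and group cannot be told apart. Depth limits Il1a, Il18 outside monocytes, and every class with few cells.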

Other observations

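The hashtag sample HR.AE, which the labels put in no group, was made up mostly of cells of the basophil or mast class, 1395 in all. That class joined 2 clusters. HR.AE held 94.6% of the cluster led by Cpa3 and Cma1, mast cell proteases, all of whose cells came from pool WBM_2, while the cluster led by the basophil genes Prss34 and Mcpt8 came from other samples. HR.AE had 159.4 CPM of the decoy receptor Il1r2 in these cells, from 3773 UMIs, 134.7 CPM of Il18rap and 59.4 CPM of Nlrp3. The cells of this class in the 5 groups are of another mix of clusters, so no comparison was made.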
